A study of Mus musculus with 99 samples.

Results

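The B cell and immunoglobulin genes Igkj1, Cd79a, Cd79b and Ms4a1 were followed in the hearts of 99 mouse strains. They were taken by name, with every probe set that the platform annotation assigns to them. They are 4 of the 11725 genes named on the array and 5 of its 22327 probe sets other than controls, since Ms4a1 has a brighter and a dimmer probe set. Each strain was represented by 1 array of heart RNA, collected to map the genetics of gene expression. There were 28 strains of the classical inbred set, CAST/EiJ, which derives from wild mice, B6cC3-1/KccJ, and 4 panels of recombinant inbred strains, BXD (30 arrays), AXB (15), BXA (13) and BXH (11). Such a panel holds homozygous mosaics of its parents. C57BL/6J is a parent of every panel, with DBA/2J in BXD, A/J in both AXB and BXA, whose crosses ran in opposite directions, and C3H/HeJ in BXH. All mice were males on chow without treatment, aged 16 weeks per the protocol in the labels. Among the BXD arrays were BXD24/TyJ-Cep290<rd16>/J, which carries a mutant Cep290 allele, and BXD29-Tlr4<lps-2J>/J, which carries a mutant Tlr4 allele.

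B lymphocytes recognise antigen through surface immunoglobulin, which is built from heavy and light chains and signals through the paired proteins CD79A and CD79B. The membrane protein CD20, encoded by Ms4a1, marks B cells and is lost when they become plasma cells, which instead secrete large amounts of antibody. In antibody-secreting cells immunoglobulin chain RNA is very abundant, and the J chain, encoded by Jchain, joins the subunits of IgM and IgA polymers. The heart holds few B cells, some of them inside vessels and some in the fat around it.

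Values are log2 signal, so 1 unit is a 2-fold difference, and no level is set against that of another probe set. The 40th percentile of all probe set means was 3.59 log2 units, and 60.0% of probe sets lay above it. The probe sets of Igkj1, Cd79a and Cd79b lay above this level on average and both Ms4a1 probe sets below it, so 3 of 5 member probe sets passed. The labelled tissue was borne out by its markers, since the mean of 7 heart muscle genes ranged only from 12.69 to 12.95 between arrays. Transcripts of other organs were present in some samples: in 37 of 99 arrays the mean of the lung and airway (27 arrays), liver (17) or thymocyte list (1) exceeded that of the median array by over 2 log2 units. The titles are numbers that run from 3 to 456 in the BXH and classical strains, CAST/EiJ and B6cC3-1/KccJ, and from 473 to 683 in BXD, AXB and BXA, so any batch they mark cannot be told apart from these sets of strains.

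Of the 4 genes, 1 had an entry in the RefSeq promoter table, and its upstream sequence is shown because Cd79a is a textbook target of B cell transcription factors. The 250 bases before the annotated start of Cd79a lie at chr7:24897247-24897496 on the plus strand of GRCm38.p6. Capitals mark the matches to motifs searched on both strands.
Cd79a: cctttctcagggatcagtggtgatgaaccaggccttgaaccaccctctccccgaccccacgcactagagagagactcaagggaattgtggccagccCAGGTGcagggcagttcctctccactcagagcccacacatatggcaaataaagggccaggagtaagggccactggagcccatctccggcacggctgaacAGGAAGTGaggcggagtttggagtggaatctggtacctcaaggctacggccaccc
Searched were ATGCAAAT, the octamer read by Oct factors, CCCNNGGG, a core read by EBF1, AGGAAGTG, an ETS site, and CAGGTG, an E-box. AGGAAGTG lay 55 to 48 bases and CAGGTG 154 to 149 bases upstream of the start, and the exact letters of the other 2 were not in this window. Sites that depart from these letters were not searched for, so this does not show that Oct factors or EBF1 have no site here. Across 32851 promoter windows of this length, ATGCAAAT was present in 1.60%, CCCNNGGG in 11.8%, AGGAAGTG in 3.14% and CAGGTG in 17.2%.

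Igkj1 had by far the widest range of the 4 genes. Its name is that of an immunoglobulin kappa joining segment, which RefSeq lists as 38 bases long, and its probes may hybridise to more than 1 transcript, so which kappa transcripts it reads cannot be told from these values. Over the 99 arrays it ran from 3.41 in BXD9/TyJ through a median of 6.22 to 10.70 in BXH6/TyJ, a range of 7.29 log2 units. The lowest strains after BXD9/TyJ were BXA24/PgnJ at 3.50 and FVB/NJ at 3.55. The highest after BXH6/TyJ were C58/J at 10.45 and AXB10/PgnJ at 10.31. The values were spread over the whole range rather than set apart by a few strains: 36 arrays lay between 3 and 5, 28 between 5 and 7, 23 between 7 and 9, and 12 at 9 or more. The SD between the 96 families, in which near-isogenic strains count once, was 1.99, above that of 99.9% of probe sets.

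High and low Igkj1 strains were found in every large group. In the classical strains Igkj1 ran from 3.55 in FVB/NJ through a median of 7.58 to 10.45 in C58/J (SD 2.02, n = 28). BXH ran from 4.37 in BXH10/TyJ through 6.85 to 10.70 in BXH6/TyJ (SD 1.78, n = 11). BXA ran from 3.50 in BXA24/PgnJ through 6.50 to 10.17 in BXA26/PgnJ (SD 2.00, n = 13). The order of the group medians was thus classical, BXH, BXA, AXB and BXD, and the ranges of all 5 overlapped over most of their length. AXB ran from 4.18 in AXB15/PgnJ through 5.97 to 10.31 in AXB10/PgnJ (SD 2.07 over 13 families). BXD ran from 3.41 in BXD9/TyJ through 4.83 to 10.09 in BXD2/TyJ (SD 1.73 over 29 families). Neighbouring medians in that order differed by less than the SD within either group. CAST/EiJ had 6.56 and B6cC3-1/KccJ 4.01.

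**Figure D1:**
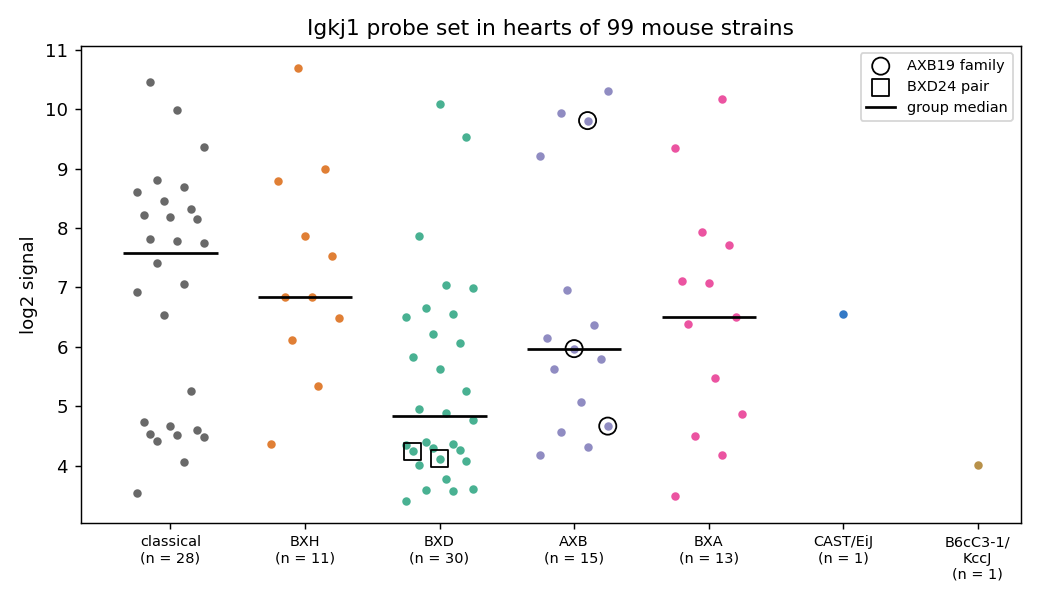
Log2 signal of the Igkj1 probe set (y axis) in each of 99 arrays, grouped by strain panel (x axis), with each group's median as a bar, circles around the 3 AXB19 strains and squares around the BXD24 pair. The 5 large groups overlap from about the bottom to the top of the scale, AXB19/PgnJ at 9.81 stands far above its sister strains at 5.97 and 4.67, and the BXD24 pair lies together at 4.24 and 4.12.

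Cd79a, which encodes the immunoglobulin-alpha signalling chain, was low and narrow in most strains, with a lowest value of 3.43 in BXA1/PgnJ and a median of 3.77. Its highest value was 5.17 in BXH4/TyJ, followed by 4.50 in CAST/EiJ and 4.49 in C58/J, and 4 of 99 arrays lay more than 0.5 above the median. BXH4/TyJ was the single array more than 1 log2 unit above the median. BXD16/TyJ at 3.47 and RIIIS/J at 3.47 were the next lowest. The medians of the 5 large groups lay between 3.72 in BXA and 3.81 in BXH.

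Cd79b, its partner immunoglobulin-beta, ran from 3.33 in FVB/NJ through a median of 3.75 to 4.67 in C58/J. BXH22/KccJ at 4.63 and C57L/J at 4.54 were the next highest, and AXB19a/PgnJ at 3.37 and KK/HlJ at 3.38 the next lowest. BXH had the highest median of the large groups, 3.91, and BXD the lowest, 3.71. In CAST/EiJ, where Cd79a was second highest of all arrays, Cd79b was 3.49, below the median array.

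Ms4a1, the gene of CD20, ran on its brighter probe set from 2.82 in 129X1/SvJ through a median of 3.22 to 4.62 in BXH4/TyJ. C58/J at 4.43 and DBA/2J at 4.27 were the next highest, and these 3 arrays were the ones more than 1 log2 unit above the median. The lowest strains after 129X1/SvJ were FVB/NJ at 2.92 and SEA/GnJ at 2.94. The spread was wide in the classical strains (SD 0.405, n = 28) and BXH (SD 0.423, n = 11) and narrow in BXD (SD 0.124 over 29 families). The dimmer probe set ran from 2.79 in B6cC3-1/KccJ through 3.11 to 3.63 in BXD14/TyJ. The 2 probe sets ranked strains only loosely alike (Spearman's rho 0.371 over 96 families) and shared C3H/HeJ and C58/J among their 10 highest arrays. C58/J was at 3.57 and C3H/HeJ at 3.42 on the dimmer one.

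**Figure D2:**
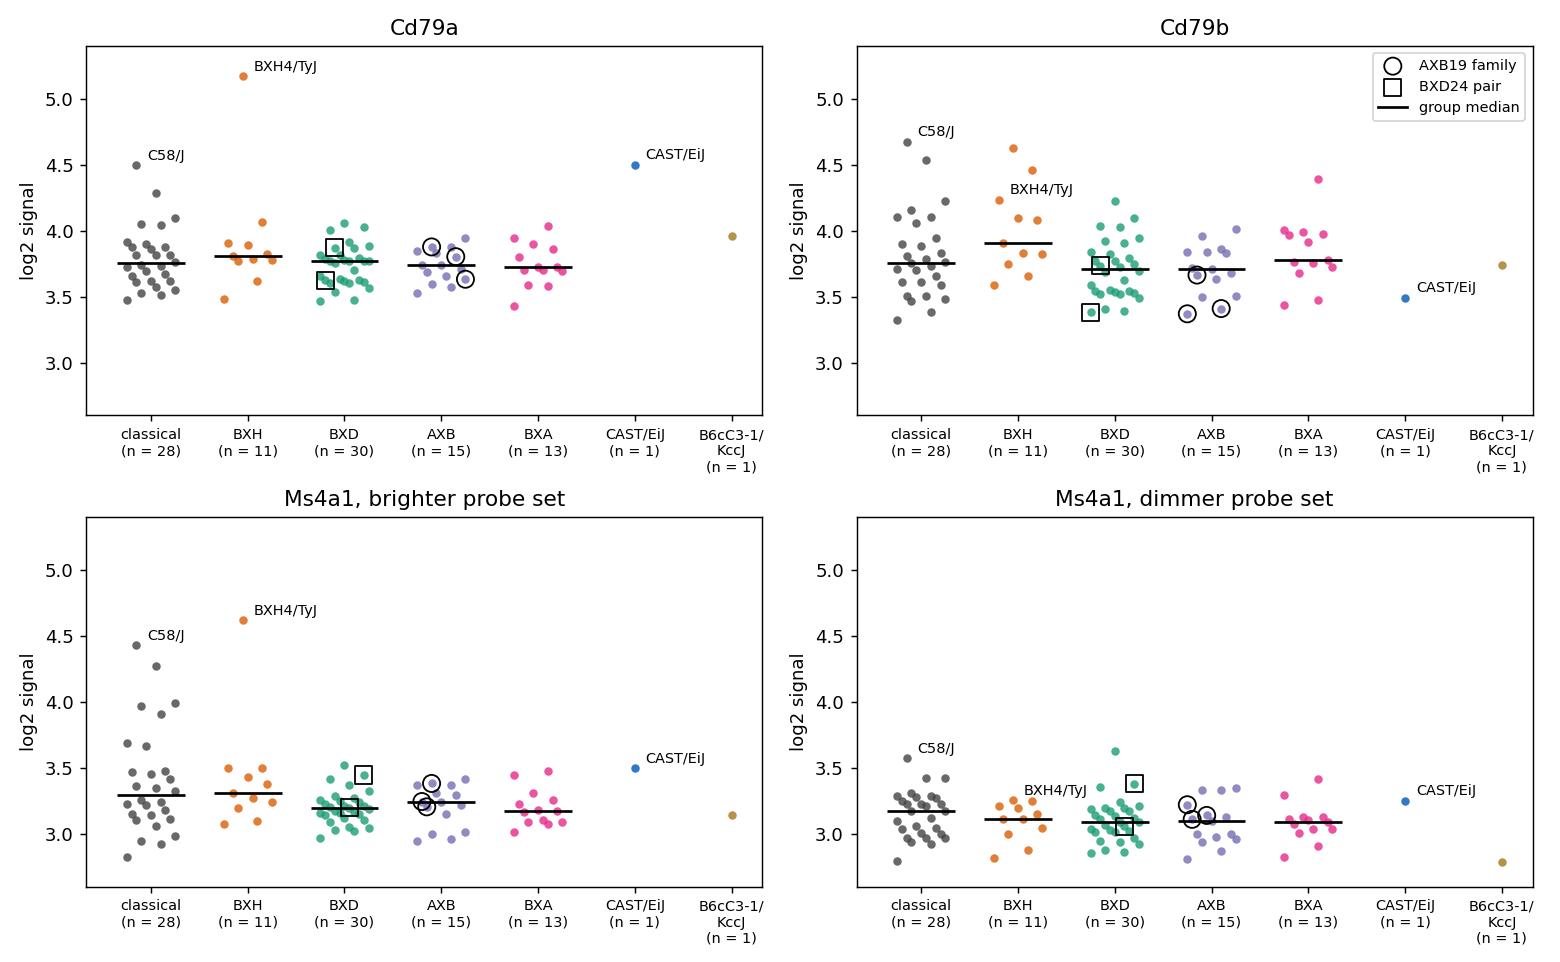
Log2 signal (y axis) of Cd79a, Cd79b and both Ms4a1 probe sets in each of 99 arrays by strain panel (x axis), with group medians as bars, circles around the AXB19 strains and squares around the BXD24 pair. Most arrays lie between 3 and 4 on all 4 probe sets, and BXH4/TyJ and C58/J stand out on Cd79a and on the brighter Ms4a1 probe set.

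C58/J was among the 10 highest arrays of all 5 member probe sets. Its lung and airway list mean was 0.17 below and its liver list mean 0.47 below the median array, and its plasma cell list mean ranked 1 of 99. BXH4/TyJ had Igkj1 at 8.99 together with the highest Cd79a and Ms4a1. In BXH4/TyJ the B cell surface and signalling list ranked 2 of 99, the granulocyte list 4 and the fat list 5, and the lung and airway list mean was 3.98 above the median array. BXH6/TyJ, the highest for Igkj1, ranked first for the lung and airway list, 6.88 above the median array, and first for the fat list, while its B cell surface and signalling list ranked 39. In CAST/EiJ, second for Cd79a, the liver list ranked 1, 6.64 above the median array, and the lung and airway list 4, 5.38 above it. In DBA/2J, the third for Ms4a1, the lung and airway list was 5.14 above the median array. Whether these other transcripts have a part in the high values was not tested. Since whole hearts were measured, fewer cells of a type and less RNA per cell cannot be told apart.

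Near-isogenic strains allow the spread between strains to be set beside the spread between nearly identical genomes. AXB19/PgnJ, AXB19a/PgnJ and AXB19b/PgnJ are sister strains of 1 panel line, and BXD24/TyJ and BXD24/TyJ-Cep290<rd16>/J differ by the Cep290 mutation. Igkj1 was 9.81 in AXB19/PgnJ, 5.97 in AXB19a/PgnJ and 4.67 in AXB19b/PgnJ, which puts AXB19/PgnJ 14.3-fold and 35.3-fold above its sisters. Of these 3 arrays 1 was thus high and the others were near or below the median of all arrays. The BXD24 pair had 4.24 in BXD24/TyJ and 4.12 with the Cep290 mutation, 1.09-fold apart. For comparison, pairs of unrelated AXB families differed by a median of 1.93 log2 units and pairs of unrelated BXD families by 1.59.

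The Igkj1 SD within the 2 near-isogenic families was 2.18 with 3 degrees of freedom, so the SD between families was 0.911 times the SD within them. Without AXB19/PgnJ the SD within families fell to 0.655 and the ratio rose to 3.04. Without AXB19b/PgnJ instead the ratio was 1.04, and without AXB19a/PgnJ or either BXD24 array it was 0.744 to 0.774. Whether Igkj1 varied more between than within families thus depended on which single array was left out. Across all probe sets the median ratio was 1.14 with all 5 arrays and 1.42 without AXB19/PgnJ. With 5 arrays in 2 families no test of these spreads was made.

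The other member probe sets did not share the Igkj1 gap between the AXB19 sisters. Cd79a was 3.88, 3.80 and 3.63 in AXB19/PgnJ, AXB19a/PgnJ and AXB19b/PgnJ, and 3.62 and 3.87 in BXD24/TyJ and its Cep290 mutant. Cd79b was 3.66, 3.37 and 3.41 in the AXB19 strains, and 3.74 and 3.38 in the BXD24 pair. Ms4a1 on its brighter probe set was 3.38, 3.21 and 3.25 in the AXB19 strains, and 3.20 and 3.45 in the BXD24 pair. The largest of these differences within a family was 0.35 log2 units. The ratio of the SD between families to that within them was 1.67 for Cd79a (0.240 over 0.143), 1.42 for Cd79b (0.275 over 0.194), 2.34 for the brighter Ms4a1 probe set (0.295 over 0.126) and 1.19 for the dimmer one (0.167 over 0.140). Ms4a1 on the brighter probe set exceeded 87.5% of all probe sets in this ratio, Cd79a 74.8% and Cd79b 65.2%. The dimmer Ms4a1 probe set exceeded 53.4% and Igkj1 33.3%. Without AXB19/PgnJ these shares were, in the same order, 75.4%, 57.2%, 55.1%, 28.5% and 83.7%. The SD within families rests on AXB and BXD strains only, whereas that between families includes the classical and BXH strains. For Cd79a the SD between families was 0.154 in BXD and 0.164 in BXA, and below 0.143 in AXB. For Cd79b it was 0.216 in BXD, 0.173 in AXB and higher than both in BXA. For the brighter Ms4a1 probe set it was 0.124 in BXD, 0.167 in AXB and 0.140 in BXA. The ratios thus do not show a wider spread between than within families inside each panel.

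**Figure D3:**
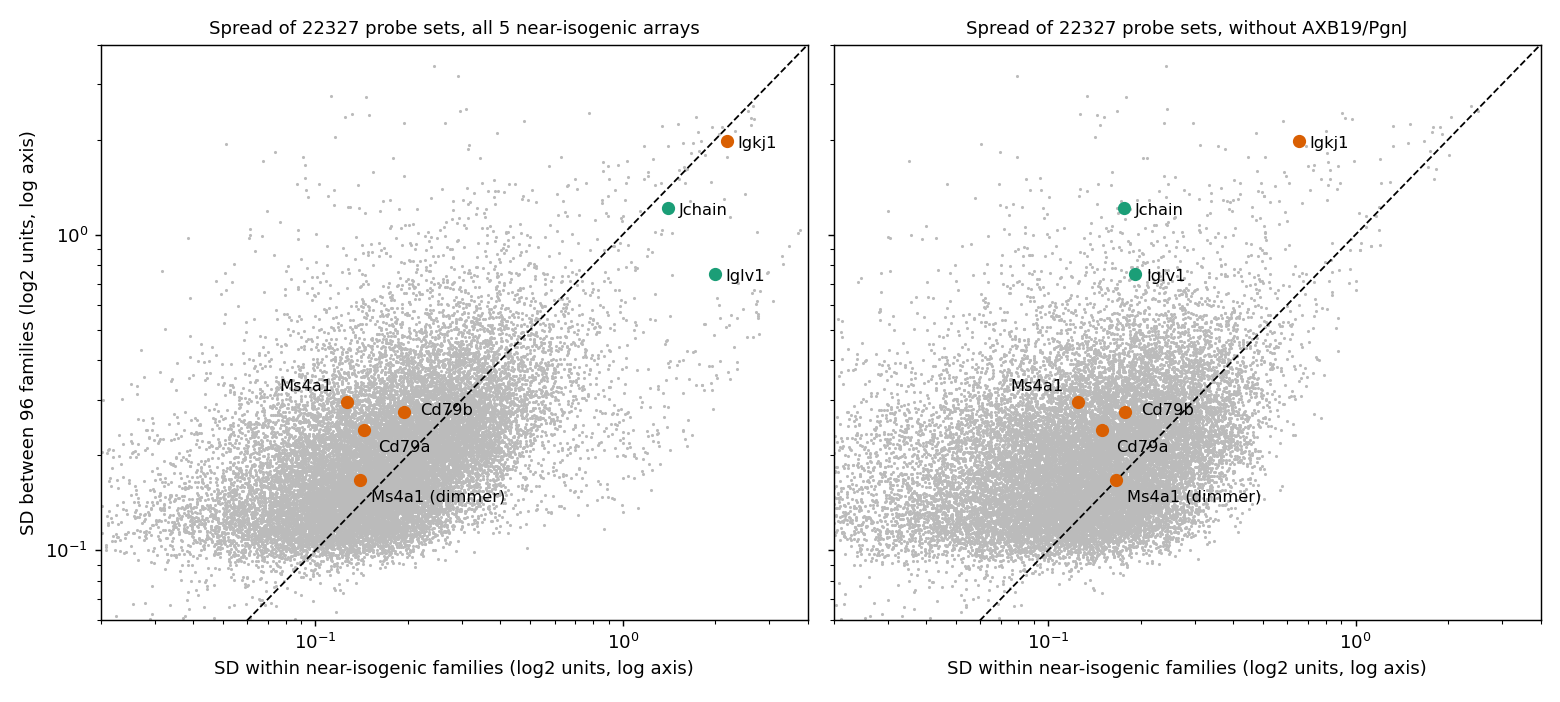
SD between 96 families (y axis, log scale) against SD within the near-isogenic families (x axis, log scale), in log2 units, for all 22327 probe sets in grey, member probe sets in orange and Jchain and Iglv1 in green, with all 5 near-isogenic arrays on the left and without AXB19/PgnJ on the right. The dashed line marks equal spread. Igkj1 lies at a ratio of 0.911 on the left and 3.04 on the right, while the other members move little.

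Jchain and Iglv1, a lambda light chain variable segment, were also high in AXB19/PgnJ. Jchain was 6.21 there against 3.41 in AXB19a/PgnJ and 3.09 in AXB19b/PgnJ, and Iglv1 was 7.50 against 3.09 and 3.47. The sister values lie below the 40th percentile of probe set means, so no fold is given. Ighm was 0.54 and Pou2af1 0.35 log2 units above the sister mean, and Xbp1 differed by -0.32. AXB19/PgnJ stood apart more widely: 768 probe sets differed by more than 1 log2 unit from the mean of its sisters, against 131 between the sisters. The T cell and thymocyte lists both ranked 1 of 99 in this array, 3.86 and 3.12 above the median array. Cd8a, a T cell coreceptor gene, was 6.52 and Rag1, which cuts antigen receptor genes in immature lymphocytes, 6.28 log2 units above the sister mean, and Igkj1 4.49. The B cell surface and signalling list also ranked 1, at 0.35 above the median array, while the liver list was 3.00 above it and the lung and airway list 0.23 below it. The part of this thymocyte RNA in the Igkj1 value was not tested.

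The parents of the panels differed in Igkj1, with 4.53 in C57BL/6J against 8.61 in DBA/2J, 8.19 in A/J and 8.70 in C3H/HeJ. Each parent was 1 array, so these differences have no replicate check. All of them have low title numbers and BXD, AXB and BXA high ones, so parent against panel cannot be told apart there from any batch these mark. Among 29 BXD families 6 lay above the midpoint of their parents and 13 lay below both, with 2 above both. Among the 26 AXB and BXA families 14 lay above the midpoint, 5 below both parents and 5 above both. Of 11 BXH strains 7 lay above the midpoint, 1 below both parents and 3 above both. Values beyond both parents thus occurred in all 3 crosses.

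On the brighter Ms4a1 probe set nearly every BXD strain was below both parents, but not on the dimmer one. C57BL/6J had 3.45 and DBA/2J 4.27 on the brighter probe set, while the 29 BXD families ran from 2.97 through 3.19 to 3.52, and 28 of them were below both. In AXB and BXA, 21 of 26 families were below both C57BL/6J and A/J (3.35), and in BXH 8 of 11 were below both C57BL/6J and C3H/HeJ (3.91). For Cd79a the C57BL/6J value was 3.52 and the DBA/2J value 4.10. Of the BXD families 2 of 29 were lower and 0 higher than both, whereas 12 of 26 AXB and BXA and 5 of 11 BXH families were higher than both of their parents and 1 in each set lower. Cd79b was 3.51 and 4.15 in these parents, and 3 of 29 BXD families lay below and 1 above both. In AXB and BXA 8 of 26 lay above and 4 below both parents, and in BXH 7 of 11 above and 0 below.

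Group means were compared with limma over all 22327 probe sets in 5 comparisons, with Benjamini-Hochberg adjustment over all of them. Comparisons that share a panel are not independent. BXD families had a lower Igkj1 mean than AXB and BXA families, 5.41 ± 1.73 (SD, n = 29) against 6.54 ± 1.99 (SD, n = 26). The difference of -1.13 (SE 0.49) did not pass (limma adjusted p = 0.158), nor did any other member probe set, beside 7.48% of all probe sets called. At an unadjusted limma p under 0.05, 1 of 5 member probe sets lay, beside 20.1% of all. Jchain differed by -0.67 (SE 0.27, limma adjusted p = 0.137), and Iglv1 differed by -0.47 (SE 0.18, limma adjusted p = 0.107). Cd79a, Cd79b and Ms4a1 differed by 0.0011, -0.07 and -0.0029 in this comparison. The Igkj1 difference was -0.49 among the lower and -1.96 among the upper title numbers, split at their median, and neither passed. Without the arrays of high airway, liver or thymocyte lists it was -0.66 (limma adjusted p = 0.565).

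Between AXB and BXA no member was called and 0% of all probe sets were. By unadjusted limma p under 0.05 there were 0 of 5 member probe sets and 2008 of all, or 8.99%. The Igkj1 means were 6.56 ± 2.07 and 6.52 ± 2.00 (SD, n = 13 each). Their difference of 0.04 (SE 0.75) leaves differences of either sign within its error.

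BXH strains had higher means than BXD and than AXB and BXA on all member probe sets, except that the dimmer Ms4a1 one was 3.09 in BXH and 3.10 in BXD. Against BXD, Cd79b was 4.01 ± 0.332 (SD, n = 11) in BXH and 3.72 ± 0.216 (SD, n = 29) in BXD. This difference of 0.29 (SE 0.087) passed (limma adjusted p = 0.0426) and was the 1 call among 5 member probe sets, beside 5.07% of all probe sets (3 of 5 against 18.3% at an unadjusted limma p under 0.05). Without BXH4/TyJ it was 0.27 and no longer passed (limma adjusted p = 0.0939). Igkj1 was 7.26 ± 1.78 in BXH and 5.41 ± 1.73 in BXD, 3.61-fold apart, and missed the threshold (difference 1.85, SE 0.59, limma adjusted p = 0.0569). It passed where dim probe sets were left out (limma adjusted p = 0.0384) and where every array counted as its own sample (0.0468). Ms4a1 differed by 0.22 (limma adjusted p = 0.112) and Cd79a by 0.18 (0.285). BXH4/TyJ carried much of both, since without it Ms4a1 differed by 0.10 and Cd79a by 0.05.

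Other transcripts moved with this comparison. Of the B cell surface and signalling list 3 of 20 genes were called higher and 0 lower in BXH, namely Cd53, Cd52 and Blnk, with differences of 0.63, 0.56 and 0.21. CD53 and CD52 are surface proteins of most leukocytes, and BLNK is an adaptor of the B cell receptor. Of 10 B cell transcription factors 0 rose and Mef2c, also a heart muscle factor, fell by 0.29. No gene of the 4 immunoglobulin chains or the 8 plasma cell genes was called (limma, 1 of each at an unadjusted p under 0.05), with Jchain 0.83 higher (limma adjusted p = 0.135) and Iglv1 0.47 higher (0.0752). The macrophage and monocyte list had 8 of 13 genes higher, the lung and airway list 5 of 8 and the granulocyte list 3 of 8. Without the arrays of high airway, liver or thymocyte lists, which left 3 BXH and 21 BXD families, the Cd79b difference was -0.0077 and that of Igkj1 1.42, and neither passed. The part of these transcripts in the Cd79b call was not tested, and panel and title number cannot be told apart here.

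Against AXB and BXA, BXH differed by 0.72 in Igkj1, 0.22 in Cd79b, 0.22 in Ms4a1 and 0.18 in Cd79a (limma adjusted p = 0.691, 0.209, 0.218 and 0.368). Without BXH4/TyJ the Ms4a1 difference was 0.10 and that of Cd79a 0.06. No member was called, beside 3.01% of all probe sets (2 of 5 against 14.7% at an unadjusted limma p under 0.05). Against the classical strains BXH differed by 0.35 in Igkj1 and 0.19 in Cd79b (limma adjusted p = 0.933 and 0.678), with no member called beside 0.103% of all probe sets (0 of 5 against 8.64% at an unadjusted limma p under 0.05). In that comparison 0 of 20 B cell surface genes, 0 of 4 immunoglobulin chains and 0 of 8 plasma cell genes were called, with 2, 0 and 1 at an unadjusted limma p under 0.05.

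The 4 genes were correlated over 96 families, with each gene read from its brightest probe set, and 6 pairs were tested by 100000 two-sided permutations with Benjamini-Hochberg adjustment. Igkj1 was correlated with Cd79b at r = 0.604 and rho = 0.570, with Ms4a1 at r = 0.522 and rho = 0.541, and with Cd79a at r = 0.454 and rho = 0.487. The permutation p was 1e-05 for each, the smallest these permutations can give (adjusted p = 1e-05 for r and 2e-05 for rho). Among the surface proteins, Cd79a and Cd79b had r = 0.418 and rho = 0.373 (permutation p = 7e-05 and 0.00018, adjusted p = 7e-05 and 0.00022). Cd79b and Ms4a1 had r = 0.474 and rho = 0.386 (permutation p = 1e-05 and 0.00015, adjusted p = 1e-05 and 0.00022). Without the 2 families farthest from the median of the first gene, r for these 5 pairs was 0.551, 0.483, 0.417, 0.489 and 0.424.

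The correlation of Cd79a with Ms4a1 rested in part on BXH4/TyJ and C58/J. Their r was 0.631 but rho 0.278 (permutation p = 1e-05 and 0.00577, adjusted p = 1e-05 and 0.00577). Without BXH4/TyJ and C58/J, r was 0.391 and rho 0.231 (adjusted permutation p = 0.0003 and 0.0252). Within low title numbers rho was 0.478 over 41 families and within high title numbers 0.0662 over 55 (adjusted permutation p = 0.00283 and 0.630).

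The pairs with Igkj1 held in both blocks of title numbers. In the low block rho was 0.640 with Cd79b, 0.625 with Ms4a1 and 0.526 with Cd79a, and in the high block 0.497, 0.445 and 0.401, all with an adjusted permutation p of 0.005 or less. In the 28 classical strains the Igkj1 rho was 0.800 with Cd79b, 0.636 with Ms4a1 and 0.612 with Cd79a. In 29 BXD families it was 0.465, 0.253 and 0.509, and the Ms4a1 value did not pass (adjusted permutation p = 0.279). Within AXB, BXA and BXH, with 11 to 13 families each, no pair passed by rho. Igkj1 had a rho of -0.341 with title number, 0.321 with the array median and 0.0394 with the 3 prime minus 5 prime difference of the Gapdh controls. Within low and high title numbers the rho with the Gapdh difference was 0.315 and 0.0655. There Igkj1 had -0.141 and -0.310 with title number itself, and 0.171 and 0.338 with the array median. With title number Cd79a had -0.0683 and -0.238, Cd79b -0.240 and -0.256, and Ms4a1 -0.146 and -0.319 in the low and high block. The split into blocks thus does not hold title number constant.

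Not every strain with high Igkj1 was high in the surface genes. In the 12 arrays with Igkj1 at 9 or more, Ms4a1 was above its median in 12, Cd79b in 9 and Cd79a in 8. In these 12 arrays Cd79a ran from 3.53 to 4.49, Cd79b from 3.66 to 4.67 and Ms4a1 from 3.24 to 4.43. Of the 10 highest arrays for Igkj1, 3 were also among the 10 highest for Cd79a (BTBR T<+> tf/J, BXA26/PgnJ and C58/J), 3 for Cd79b (BXA26/PgnJ, BXH6/TyJ and C58/J) and 2 for the brighter Ms4a1 probe set (BTBR T<+> tf/J and C58/J). With the dimmer Ms4a1 probe set 5 were shared (AXB1/PgnJ, AXB10/PgnJ, BXD14/TyJ, C58/J and NZB/BlNJ). Cd79a shared 6 of its 10 highest arrays with Cd79b and 6 with the brighter Ms4a1 probe set.

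The genes most like Igkj1 over 96 families, by Spearman's rho among all other genes, were Jchain (0.904) and Iglv1 (0.755). These are given as a description, and families share platform and normalization. The next were Acp5, an acid phosphatase of macrophages and osteoclasts (0.592), Retn, the fat hormone resistin (0.567), the B cell attracting chemokine Cxcl13 (0.560), the fat-rich carbonic anhydrase Car3 (0.552), the factor Cebpa (0.548) and the lipid enzyme Scd1 (0.545). In low and high title numbers Jchain had 0.894 and 0.869, Iglv1 0.773 and 0.689, Retn 0.650 and 0.462, and Cxcl13 0.581 and 0.490.

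Jchain and Iglv1 were well above their medians only in arrays with Igkj1 above its median. Over all arrays Jchain ran from 2.85 through 3.35 to 8.68 in BXH6/TyJ, and 21 arrays lay more than 1 log2 unit above its median, all with Igkj1 of 7.75 or more. Where Igkj1 was below 7, in 64 arrays, Jchain ran from 2.85 to 4.27, and where it was 9 or more, in 12 arrays, from 4.79 to 8.68. Jchain and Iglv1 were the genes of highest rho with Igkj1 in these same arrays, so these ranges describe that relation again and give no separate support. Iglv1 ran from 2.95 through 3.39 to 7.50 in AXB19/PgnJ, and its 13 arrays more than 1 above the median all had Igkj1 of 6.49 or more. With Igkj1 at 9 or more Iglv1 ran from 3.65 to 7.50, and with Igkj1 below 7 from 2.95 to 4.65.

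**Figure D4:**
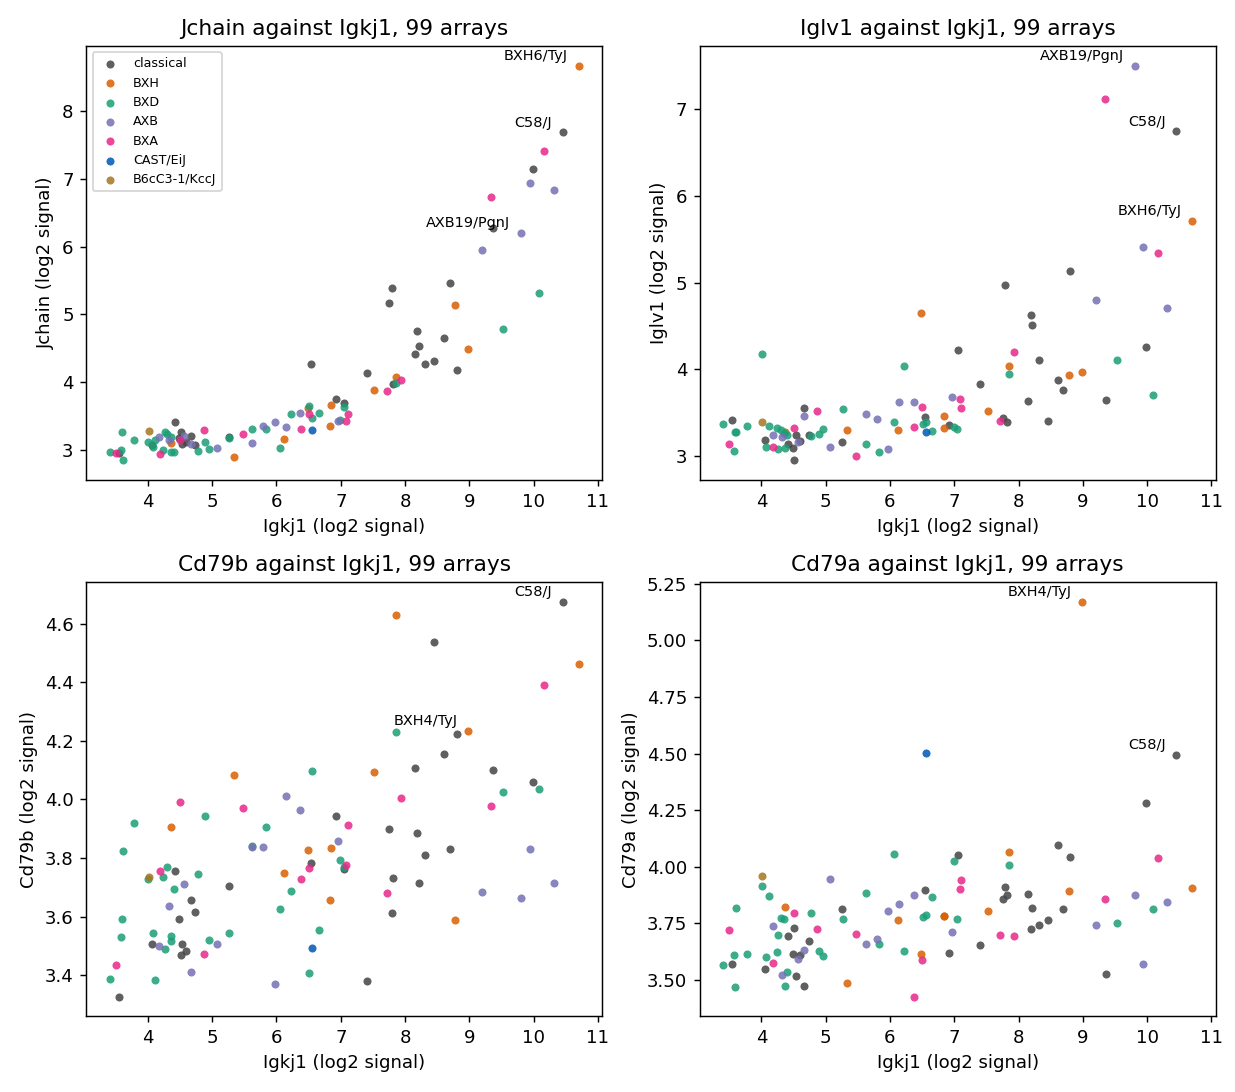
Jchain, Iglv1, Cd79b and Cd79a (y axes, log2 signal) against Igkj1 (x axis, log2 signal) in 99 arrays, coloured by strain panel. Jchain stays near 3 to 4 until Igkj1 passes 7 and then climbs to 8.68 in BXH6/TyJ, Iglv1 climbs in fewer arrays, and Cd79b and Cd79a span about 1 to 2 units over the whole Igkj1 range.

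The genes most like the 3 surface genes were partly the same. Jchain was the most alike for Cd79a (rho 0.459) and Cd79b (0.50) and the second for Ms4a1 (0.481), and Iglv1 was the most alike for Ms4a1 (0.488) and had 0.416 with Cd79a and 0.443 with Cd79b. Retn had 0.447 with Cd79a and 0.447 with Cd79b. Pou2af1, a coactivator of octamer-dependent immunoglobulin transcription, had 0.441 with Cd79a and 0.434 with Cd79b, and Cxcl13 0.431 with Cd79a. For Cd79a the other genes of the first 8 were Abhd2 (0.408), Zfp445 (0.408) and Prkcb, a kinase of B cell receptor signalling (0.392). For Cd79b they were Car3 (0.440), Cd52 (0.435), Npc2 (0.419) and Dock2 (0.415). For Ms4a1 they were Trf, the transferrin gene (0.452), Coro1a (0.437), the kappa variable gene Igk-V21 (0.426), Cfp (0.423), Kctd12 (0.414) and Cd53 (0.404).

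Most other B cell genes stayed near the low end and followed the members weakly. Of 20 genes of the B cell surface and signalling list, 4 had a rho over 0.3 with Igkj1, 3 with Cd79a, 3 with Cd79b and 3 with Ms4a1, or 20%, 15%, 15% and 15%, against 1.55%, 0.700%, 0.913% and 0.845% of all genes. The 4 with Igkj1 were Cd52 (0.522), Cd22, an inhibitory receptor of B cells (0.432), Cd53 (0.430) and Blnk (0.405). Cd52 ran from 2.95 through 3.63 to 7.69, whereas Cd22 ran from 3.34 through 3.65 to 4.24. Shares above that of all genes were not particular to B cell genes. With Igkj1 the share was 50% in the lung and airway list, 33.3% in the fat list and 22.2% in the MHC class II list. It was 15.4% in the T cell list and 0% in the liver, erythroid, NK cell and thymocyte lists. The fat list had 33.3% with Cd79a, Cd79b and Ms4a1 too. Cr2, Cd40, Btk and Pax5, the defining transcription factor of B cells, had an Igkj1 rho of 0.0426, 0.198, 0.166 and 0.113. Pax5 ran from 2.86 through 3.19 to 3.58, and its mean lay below the 40th percentile of probe sets.

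Of 10 B cell transcription factors 2 had a rho over 0.3 with Igkj1, Pou2af1 (0.541) and Spib, an ETS factor of B cells (0.473). Both are dim, with Pou2af1 from 2.89 through 3.26 to 3.78 and Spib from 3.02 through 3.30 to 3.89. Of the 4 immunoglobulin chains 2 had one, Iglv1 and Ighm, the mu heavy chain (0.453), while Igha, the alpha heavy chain, had -0.0131 and the remaining member, a kappa variable gene, 0.0853. Ighm ran from 2.87 through 3.13 to 4.53. Of 8 plasma cell genes 2 had a rho over 0.3, Jchain and Pou2af1, while Xbp1, Prdm1, Irf4 and Tnfrsf17, which drive or mark antibody secretion, had 0.195, -0.128, 0.152 and -0.224.

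Each member was also correlated with the mean of each of 17 gene lists, 68 relations tested by permutation and adjusted together. Of these 39 passed by rho, 11 for Igkj1, 7 for Cd79a, 12 for Cd79b and 9 for Ms4a1. Igkj1 had its highest values with the plasma cell list (rho 0.730, r 0.798), the immunoglobulin chains (rho 0.658, r 0.703), the lymph node stroma list (rho 0.556, r 0.545) and the B cell surface and signalling list (rho 0.534, r 0.517), each with an adjusted permutation p of 0.00014 for rho. The plasma cell mean holds Jchain, the immunoglobulin mean Iglv1 and the lymph node stroma mean Cxcl13, and the other 4 stroma genes had Igkj1 rho values from -0.179 to 0.0547. These 4 lists also passed within both blocks of title numbers and without the arrays of high airway, liver or thymocyte lists.

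Further lists, most of them of other cell types, were correlated with Igkj1. Spearman's correlation was 0.362 with the fat list, 0.355 with the lung and airway list, 0.311 with MHC class II, 0.282 with macrophages and monocytes, 0.259 with T cells, 0.252 with granulocytes and 0.233 with the B cell transcription factors (adjusted permutation p from 0.00168 to 0.0400). With each array centred on its median, the T cell value was 0.147 and that of the B cell transcription factors 0.165, and neither passed (adjusted permutation p = 0.212 and 0.157). With liver it was 0.0444, with erythroid genes 0.115, with NK cells 0.169, with thymocytes 0.215, with atrial muscle 0.219 and with heart muscle -0.202, and these did not pass. Of the 6 fat genes Adipoq (0.510) and Retn (0.567) had a rho over 0.3 and Fabp4 had -0.0293. Without the arrays of high airway, liver or thymocyte lists, 61 of 96 families were left. There the fat, airway, MHC class II, macrophage, T cell and granulocyte lists no longer passed with Igkj1. With fewer families a relation of the same size passes less readily, but rho was also lower there for each of these lists. Over this run and that with centred arrays, rho ran from 0.0611 to 0.236 for granulocytes and 0.141 to 0.325 for airway. It ran from 0.266 to 0.353 for fat, 0.236 to 0.272 for macrophages and 0.147 to 0.194 for T cells, and was at most 0.303 for MHC class II. Whether these relations were lost was not tested. The part of these lists in the Igkj1 values was not tested.

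The surface genes were correlated with several lists too. With the lymph node stroma list rho was 0.435 for Cd79a, 0.401 for Cd79b and 0.338 for Ms4a1, and with the B cell surface and signalling list 0.329, 0.416 and 0.456. Cd79a and Cd79b were negatively correlated with the heart muscle list (rho -0.279 and -0.253), and Cd79b passed with the erythroid list (0.264), neither of which passed for Igkj1. With the B cell transcription factors rho was 0.277 for Cd79a and 0.318 for Cd79b. Over the 61 families left without the arrays of high airway, liver or thymocyte lists, 2 lists passed for Cd79a (lymph node stroma and plasma cell). There 3 passed for Cd79b (lymph node stroma, fat and B cell transcription factors) and 3 for Ms4a1 (B cell surface and signalling, immunoglobulin chains and plasma cell).

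**Figure D5:**
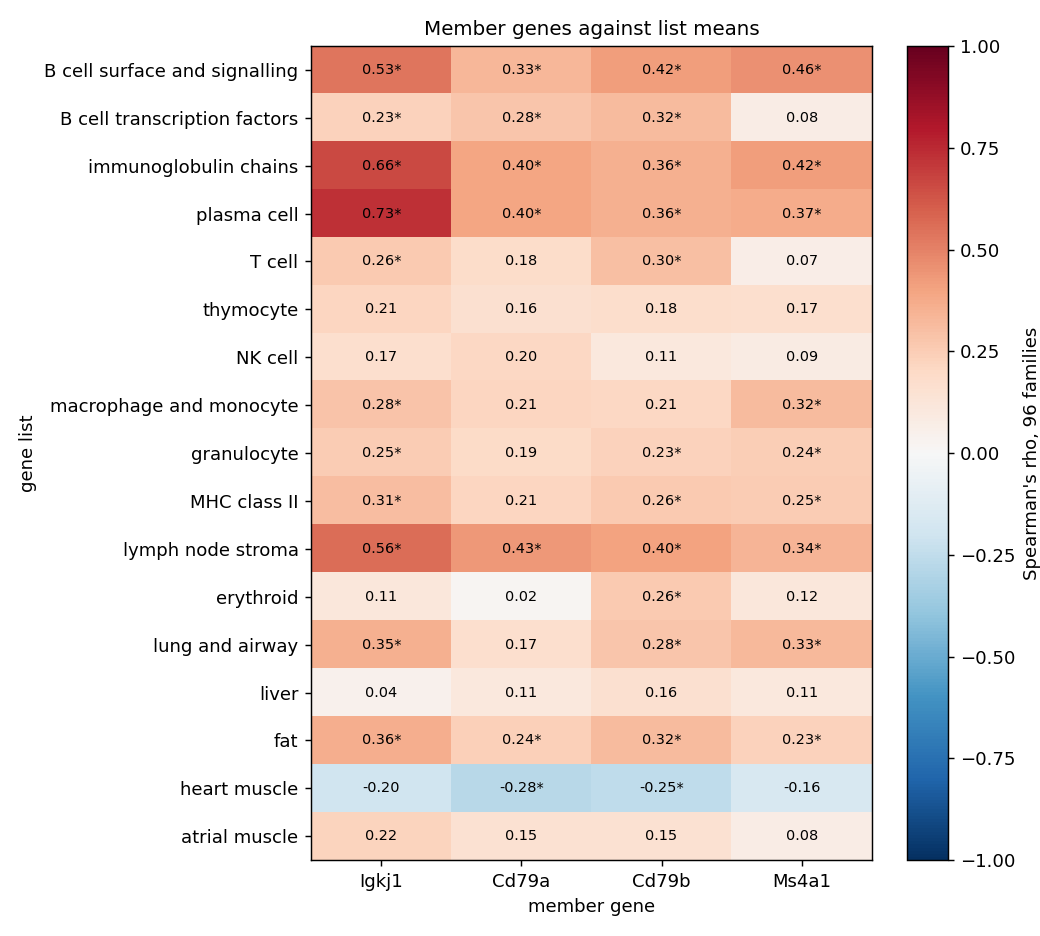
Spearman's rho over 96 families (colour and printed value) between each member gene (columns) and the mean of each of 17 gene lists (rows), with an asterisk where the adjusted permutation p is under 0.05. Igkj1 has the highest values, 0.73 with the plasma cell list and 0.66 with the immunoglobulin chains, and heart muscle is the 1 list negative for all 4 genes.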

How the data were processed

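Per the labels, heart RNA of each strain was put on 1 Affymetrix HT_MG-430A array. The deposited table holds log2 values of 22416 probe sets, which include 89 controls. GCOS and RMA are named, without versions, per the submitters' processing notes. RMA normalizes by quantiles and sums probes on a log2 scale. Signal over background was not examined, and 1 array per strain limits precision. The spread behind the p-values thus holds strain, animal and array differences together. An age label of 16 to 113 weeks goes against the protocol's 16 weeks and was not used. The meaning of the title numbers and the genome build are not given in the sources used here.

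Only the 17783 probe sets with 1 symbol in the platform annotation were named (284 had several, 4349 none). The AXB19 and BXD24 families were averaged, leaving 96 families. Group differences were tested with limma 3.58.1 (lmFit, eBayes) in R 4.3.3 on 22327 probe sets, using only the compared groups and no covariates, with a threshold of 0.05 on the Benjamini-Hochberg adjusted p. Correlations used 100000 two-sided permutations (Python 3.11.15, scipy 1.17.1, numpy 2.4.6). Both were tested on simulated data. The members and the 17 lists (181 entries, 142 on the array) were chosen with earlier results of these data known. Named genes were the members, the 8 genes of highest rho with each, the B cell, immunoglobulin and plasma cell lists, at most 3 genes of other lists, the parents, CAST/EiJ and the 3 highest and lowest strains per gene. Other genes and strains, Cd8a and Rag1 included, and the motifs were chosen after their values were seen. The Cd79a sequence is RefSeq's (GRCm38.p6).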

Additional observations from a re-analysis of the deposited data

How the results depend on the processing

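The members called in BXH minus BXD, 1 of 5, became 2 without probe sets below the 40th percentile, 2 with every array as its own sample, 0 without arrays of high airway, liver or thymocyte lists (0 at an unadjusted p under 0.05) and 0 without BXH4/TyJ and C58/J (3 at an unadjusted p), of which only BXH4/TyJ is in this comparison (limma). The last alternative was chosen after seeing the data, as were the splits at the median title number and the run without AXB19/PgnJ. The other 4 comparisons kept 0 members called under every alternative run. Without the high-list arrays the Cd79a and Ms4a1 rho was 0.223 (adjusted permutation p = 0.0827, over 61 families) and 13 of the list correlations passed instead of 39 (33 with each array centred on its median). In these 2 results fewer families were tested. The other 5 member pairs passed by rho under each of the 5 alternatives run for them. The Igkj1 spread ratio ran from 0.744 to 3.04 when each near-isogenic array was left out. It was 3.04 without AXB19/PgnJ and 1.04 without AXB19b/PgnJ.

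Signs turned for Igkj1 and Cd79b differences that never passed, except Cd79b in BXH minus BXD. Igkj1 in AXB minus BXA was -0.88 without the high-list arrays, -0.043 among upper title numbers and -0.073 without AXB19/PgnJ. Cd79b in BXD minus AXB and BXA was 0.0039 without the high-list arrays and 0.025 among lower title numbers. Without the high-list arrays Cd79b was -0.021 in BXH minus classical, -0.0077 in BXH minus BXD and -0.0038 in BXH minus AXB and BXA. Signs also turned for some Cd79a and Ms4a1 differences, none of which passed. Cd79a in AXB minus BXA was -0.014 in all families, 0.165 among lower and -0.170 among upper title numbers. Ms4a1 in BXD minus AXB and BXA was -0.0029 in all families and 0.050 without the high-list arrays. The cause was not tested.

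Counts of called probe sets in limma moved as follows. BXD minus AXB and BXA had 1669, against 987 with 1 probe set per gene, 608 with the Gapdh covariate, and 665 and 232 among lower and upper title numbers. BXH minus classical had 23, against 15 with 1 probe set per gene, 6 without BXH4/TyJ and C58/J and 0 without the high-list arrays (1268 at an unadjusted p under 0.05). BXH minus BXD had 1133, against 716 with 1 probe set per gene, 673 with the Gapdh covariate and 136 without the high-list arrays. BXH minus AXB and BXA had 673, against 424 with 1 probe set per gene and 18 without the high-list arrays. No paired analysis was possible because the labels give no replicate numbers that groups share. Cd79a, Cd79b and Ms4a1 lie close to the low end of the array, which limits what differences in them can be seen.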
